A study of Mus musculus with 20 samples.

Results

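Complement is a cascade of plasma and tissue proteins that marks microbes, immune complexes and dying cells for removal. In the classical pathway, C1q binds its target and the attached proteases C1r and C1s cut C4 and C2, whose fragments form an enzyme that cuts C3. In the alternative pathway, factor B joins C3 fragments to make more of the same kind of enzyme, and small fragments released on the way call leukocytes through receptors such as the C3a receptor. Most circulating complement comes from the liver, C1q comes mainly from macrophages and dendritic cells, and kidney tubule cells are known to make C3, C4 and factor B themselves.

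The 9 genes described here were taken by name from the count table, which holds 24411 genes: C1qa, C1qb and C1qc (the chains of C1q), C1ra (C1r), C2, C4b (C4), C3, Cfb (factor B) and C3ar1 (the C3a receptor). The names were chosen without a threshold on any measured value, but with earlier results of these data known. All 9 genes were in the table and passed the filter on low counts in every comparison.

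Whole kidneys of 20 mice were sequenced at P125, 1 library per mouse, with 5 mice in each combination of sex and genotype, from 3 litters. Mutants carried Pkd2 fl/fl with Pax8rtTA and TetOCre, so that doxycycline (DOX) switches on Cre in the tubules along the nephron and deletes Pkd2, which leads to cysts. Controls lacked Pax8rtTA or TetOCre, and both genotypes received DOX at 50 mg/kg from P27 to P29. The model deletes the gene in tubule cells and not in macrophages or vessels, and a whole kidney mixes all of these with any blood left in it. The comparisons asked how mutant kidneys differ from controls, how the sexes differ, and which transcripts follow the ratio of kidney weight to body weight (KBW, in percent), a measure of cystic disease. The labels give 1 kidney weight per mouse, taken here as that of a single kidney because the study defines KBW so, though the labels do not say it. KBW was 0.692% ± 0.117 (SD, n = 5) in male controls, 1.68% ± 0.338 in male mutants, 0.615% ± 0.0448 in female controls and 1.18% ± 0.261 in female mutants.

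Total counts lay between 11307741 and 19324073 per library. Pkd2 itself fell from 291 ± 31.1 CPM (counts scaled to library size, SD, n = 5) in male controls to 119 ± 9.86 in male mutants, and was 257 ± 49.1 in female controls and 145 ± 33.6 in female mutants (all mutants against all controls, log2 fold change -1.06, SE 0.12, adjusted p = 9.7e-06). Markers of proximal tubule summed to between 5346 and 11015 CPM in every kidney. The library of female mutant 4 stood apart, with the lowest total and 14850 genes detected against 16776 to 17724 in the other libraries. Only 76 genes had exactly 1 count in it, against 708 to 859 in the others, so the library itself was unusual. This mouse also had the lowest KBW of the mutants (0.836%). For its values, an effect of the library and one of milder disease cannot be told apart. Calls of the members that change without it are given both ways.

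The members lie on 3 chromosomes of GRCm38. C1qb (chr4:136880129-136886187), C1qc (chr4:136889804-136893065) and C1qa (chr4:136895917-136898803) stand side by side on the minus strand, with gaps of 3616 and 2851 bases. C3ar1 (chr6:122847138-122856161, minus strand) and C1ra (chr6:124512405-124523443, plus strand) share chromosome 6. C4b (chr17:34728380-34743882), Cfb (chr17:34856374-34862518) and C2 (chr17:34862604-34898265) lie on the minus strand of the major histocompatibility region of chromosome 17, where only 85 bases separate Cfb from C2. C3 is farther along the same chromosome (chr17:57203970-57228136, minus strand).

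Some of these genes have near-identical neighbours, so their counts depend on how shared reads were handled, which is not given in the sources used here. The longest transcripts of C4b and C4a were 96.1% identical over 5367 aligned bases, and those of C1ra and C1rb 97.98% identical over 2429 bases. C4a had at most 34 counts and C1rb at most 2 counts in any library, and a shift of reads between the copies cannot be told apart from a change of C4b or C1ra. Cfb and C2, which descend from a common ancestor, were only 63.7% identical. A read-through model, Gm20547, overlaps 2246 exon bases of Cfb and 1656 of C2 on the same strand and is not analysed here, and Zbtb12 on the other strand overlaps 161 exon bases of C2.

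Level differed widely between the members. Per kilobase of exon, Cfb stood highest in all 4 groups, at 207 ± 8.62 CPM per kb (SD, n = 5) in male controls and 123 ± 7.08 in female controls. C2 came next in male controls (14.02 ± 1.49), close to C1qb (13.2 ± 0.605) and C1qa (12.3 ± 1.76), whose spreads overlapped with it. C3 stood at 3.64 ± 0.957 CPM per kb, C4b at 1.38 ± 0.212 and C3ar1 lowest at 0.546 ± 0.0649. In male mutants C3 had moved to 34.2 ± 28.98 CPM per kb, within the spread of C1qa (40.3 ± 21.2) and C1qb (42.8 ± 23.8), while Cfb was at 263 ± 24.9. The order of Cfb as the highest and C3ar1 as the lowest was the same in the 4 groups.

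**Figure D1:**
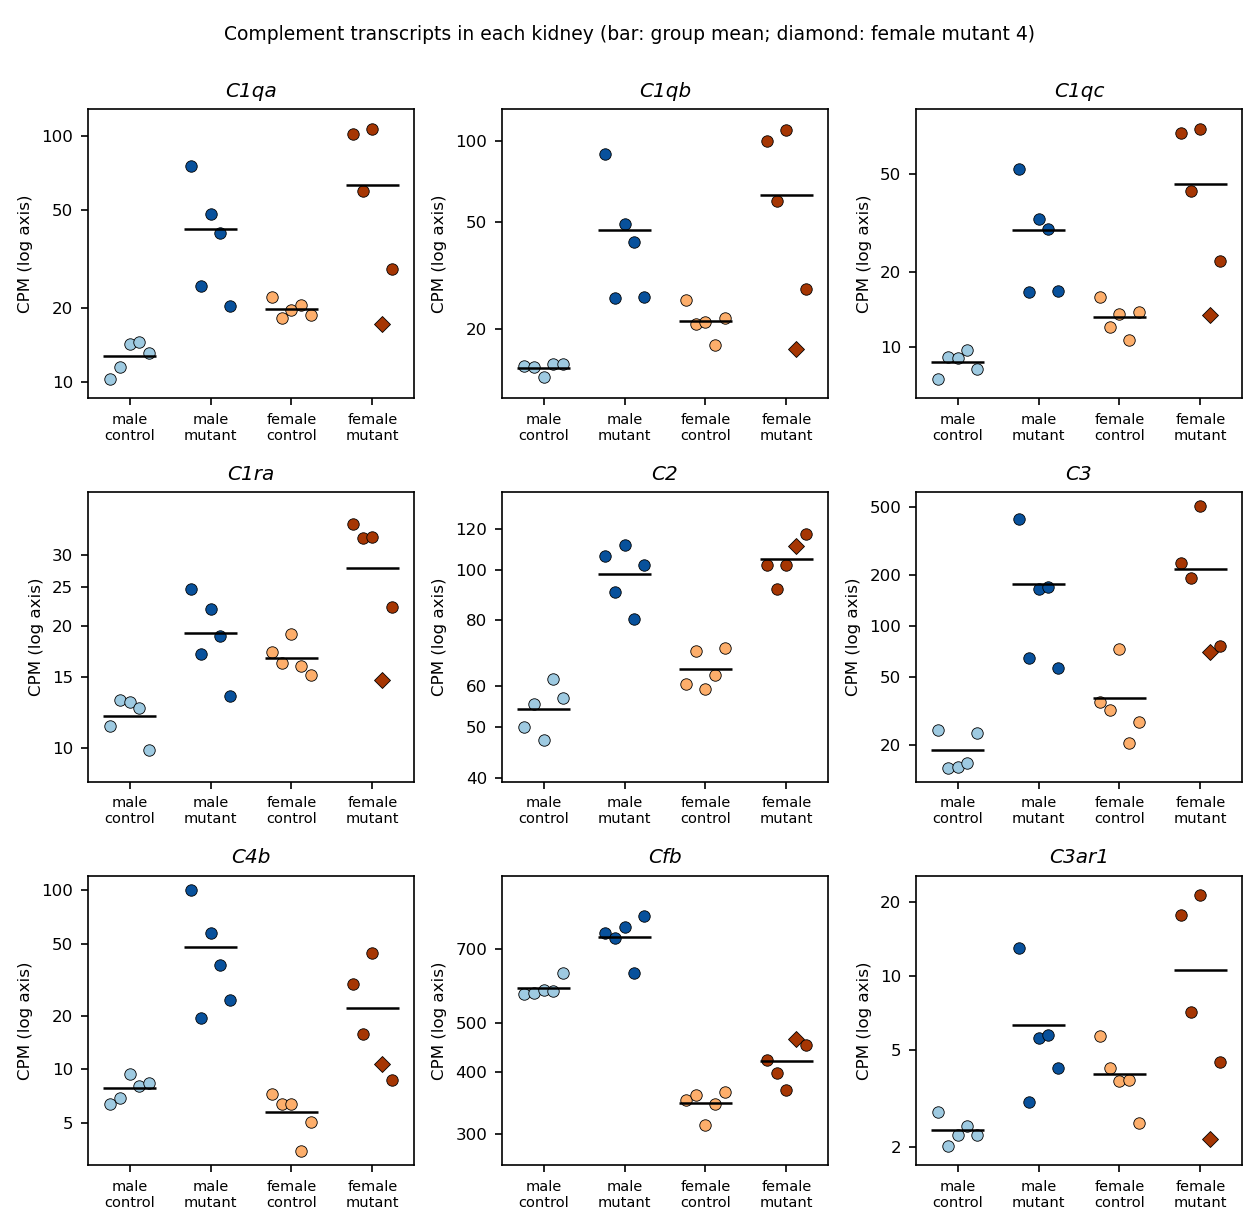
Level of each complement transcript in each kidney, in CPM on a log axis, with 1 point per mouse, a bar at the group mean and a diamond for female mutant 4. All 9 transcripts separated the male mutants from the male controls, whereas in females 3 of the 9 did, and C2 alone kept all 10 mutants above all 10 controls.

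C1q was higher in mutant than in control kidneys, 3.06-fold for C1qa, 2.99-fold for C1qb and 3.30-fold for C1qc as fitted over all mice. Whole kidneys were measured, so more cells of a type and more RNA per cell cannot be told apart. C1qa, the A chain, was at 10.3, 11.6, 13.1, 14.3 and 14.6 CPM in the male controls and at 20.3, 24.6, 40.5, 48.4 and 75.6 CPM in the male mutants. In females it was at 18.2, 18.8, 19.6, 20.7 and 22.2 CPM in the controls and at 17.2, 28.8, 59.8, 102 and 107 CPM in the mutants, where 17.2 was female mutant 4. The male groups did not overlap, and in females this 1 mutant lay below every control while the other mutants lay above them. Over all 20 mice the log2 fold change of C1qa was 1.61 (SE 0.27, adjusted p = 2.6e-04). For C1qb, the B chain, it was 1.58 (SE 0.28, adjusted p = 3.8e-04), and for C1qc, the C chain, 1.72 (SE 0.26, adjusted p = 9.6e-05).

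The 3 chains, subunits of 1 protein, moved together. C1qb ranged from 13.2 to 14.9 CPM in male controls, 26.0 to 89.4 in male mutants, 17.4 to 25.6 in female controls and 16.9 to 109.7 in female mutants. C1qc ranged from 7.46 to 9.74, 16.7 to 51.9, 10.7 to 16.0 and 13.5 to 75.7 CPM in the same order of groups. In mutants the ratio of C1qb to C1qa counts stayed between 0.978 and 1.297 and that of C1qc to C1qa between 0.678 and 0.828, and over all 20 mice these ratios spanned 0.841 to 1.40 and 0.516 to 0.828. Across the 20 mice the log2 CPM of C1qa and C1qc had Pearson's r = 0.990, a description that includes the shift between genotypes.

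Since these chains moved together, their promoters are shown, with the bases that lie before both the RefSeq and the GENCODE gene start (RefSeq, GRCm38.p6, 5′ to 3′ on the gene's strand). Capitals mark an ETS core, AGGAAGT read on either strand, a motif chosen after the sequences were seen. The first is chr4:136886201-136886450 and the second chr4:136893066-136893164, both minus strand.
C1qb: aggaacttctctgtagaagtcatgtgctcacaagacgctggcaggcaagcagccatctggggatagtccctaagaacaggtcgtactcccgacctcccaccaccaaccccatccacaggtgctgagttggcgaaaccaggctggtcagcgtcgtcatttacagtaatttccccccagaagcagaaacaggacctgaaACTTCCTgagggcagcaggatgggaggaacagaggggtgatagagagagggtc
C1qc: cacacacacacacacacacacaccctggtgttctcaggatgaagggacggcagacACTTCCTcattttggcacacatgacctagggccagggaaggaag

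The ETS core, on the strand opposite to the gene, lay 53 to 47 bases before the RefSeq start of C1qb and 195 to 189 bases before that of C1qc. Of all 32851 RefSeq promoters of the same 250 bases, 7.69% held it on either strand. A STAT site (TTCNNNGAA, in 7.02% of all promoters) and the core of an interferon response element (GAAANNGAA, in 7.13%) were found before neither RefSeq start, and an NF-kB consensus (in 7.25%) was found once, 41 to 32 bases before the RefSeq start of C1qc, in bases that lie past the GENCODE start and are not among those printed. No promoter sequence of C1qa, C2, C4b or Cfb is shown.

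C1ra, the protease that C1q carries, rose less than C1q. It ranged from 9.90 to 13.2 CPM in male controls, 13.4 to 24.7 in male mutants, 15.1 to 19.1 in female controls and 14.7 to 35.7 in female mutants, the lowest being female mutant 4. The log2 fold change over all mice was 0.70 (SE 0.12, adjusted p = 4.3e-04). C1s1, which encodes the partner protease C1s, had a similar value of 0.74 (SE 0.14, adjusted p = 8.5e-04) and went from 24.5 to 41.8 CPM in males and from 34.1 to 57.5 CPM in females as group means.

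C2, the classical pathway component that supplies the cutting part of the C3 convertase, gave the cleanest separation. It was at 47.2, 50.0, 55.4, 56.9 and 61.8 CPM in male controls and at 80.7, 90.6, 102, 106 and 112 CPM in male mutants. In females it was at 59.1, 60.4, 63.0, 69.8 and 70.8 CPM in controls and at 91.9, 102, 102, 111 and 117 CPM in mutants. The lowest mutant (80.7 CPM) lay above the highest control (70.8 CPM), and female mutant 4 was among the high values, at 111 CPM. The change was modest in size, with a log2 fold change of 0.77 (SE 0.07), but its adjusted p of 1.8e-06 placed it at rank 9 of the 14191 genes tested.

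C4b and C3 had the highest fold changes of the 9 members. C4b, which encodes the C4 that C1s cuts, was at 6.44, 6.93, 8.03, 8.43 and 9.46 CPM in male controls and at 19.5, 24.3, 38.5, 58.1 and 101 CPM in male mutants. In females it was at 3.51, 5.09, 6.42, 6.43 and 7.32 CPM in controls and at 8.75, 10.7, 15.8, 29.9 and 44.4 CPM in mutants, with no overlap in either sex. The log2 fold change was 2.24 (SE 0.32, adjusted p = 6.6e-05).

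C3, on which all pathways converge, had the largest change of the 9 members, with a log2 fold change of 2.78 (SE 0.41, adjusted p = 8.7e-05). It was at 14.7, 14.9, 15.8, 23.5 and 24.7 CPM in male controls and at 56.4, 64.6, 165, 169.6 and 425 CPM in male mutants. In females it was at 20.5, 27.2, 32.0, 35.8 and 73.2 CPM in controls and at 70.6, 76.4, 191, 234 and 504 CPM in mutants. The groups overlapped in females only between the highest control (73.2 CPM) and female mutant 4 (70.6 CPM). The spread among mutants was near the mean itself, at 176 ± 149 CPM (SD, n = 5) in males and 215 ± 177 CPM in females, whereas C2 had 98.3 ± 12.6 and 105 ± 9.69 CPM.

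The bases before the C3 start are shown because C3 changed most (chr17:57228137-57228386, minus strand), beside those of C3ar1 (chr6:122856162-122856407, minus strand), whose product receives the C3a fragment. Capitals mark a C/EBP site, TTGCNNAA, chosen after the sequences were seen and held by 9.56% of all promoters.
C3: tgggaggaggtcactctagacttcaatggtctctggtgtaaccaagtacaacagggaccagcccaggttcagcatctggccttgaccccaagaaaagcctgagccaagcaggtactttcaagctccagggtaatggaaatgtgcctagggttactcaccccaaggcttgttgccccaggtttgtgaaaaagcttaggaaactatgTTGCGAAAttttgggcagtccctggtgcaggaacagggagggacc
C3ar1: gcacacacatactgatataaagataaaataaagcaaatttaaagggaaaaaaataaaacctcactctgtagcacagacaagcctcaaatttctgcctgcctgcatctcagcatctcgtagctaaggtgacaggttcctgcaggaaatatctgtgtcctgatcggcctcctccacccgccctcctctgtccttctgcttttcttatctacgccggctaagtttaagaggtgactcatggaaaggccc

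The C/EBP site lay 45 to 38 bases before the C3 start, on the gene's strand. The STAT, interferon response element and NF-kB motifs, chosen before the sequences were seen, were not found in the C3 window, nor was the ETS core. None of the 5 motifs searched was found in the C3ar1 window. A match or its absence describes these letters and says nothing of binding.

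Cfb, factor B of the alternative pathway, was abundant in every kidney and changed least. It was at 569, 573, 577, 579.99 and 628.504 CPM in male controls and at 628.546, 736, 754, 775 and 817 CPM in male mutants, so that these groups touched without overlapping. In females it was at 313, 345, 350.3, 359 and 363 CPM in controls and at 367, 398, 421, 451 and 463 CPM in mutants, where the lowest mutant was just above the highest control. The log2 fold change over all mice was 0.32 (SE 0.06, adjusted p = 5.7e-04), or 1.25-fold. Every female mutant lay below every male control.

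C3ar1, the receptor for C3a on myeloid cells, was the least abundant member, with 25 to 422 counts per library. It ranged from 2.03 to 2.78 CPM in male controls, 3.08 to 13.1 in male mutants, 2.51 to 5.67 in female controls and 2.16 to 21.4 in female mutants, the lowest again being female mutant 4. The log2 fold change was 1.41 (SE 0.31, adjusted p = 0.0024). Without male mutant 1, the mouse with the highest KBW, the adjusted p became 0.0114 and C3ar1 was not called.

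**Figure D2:**
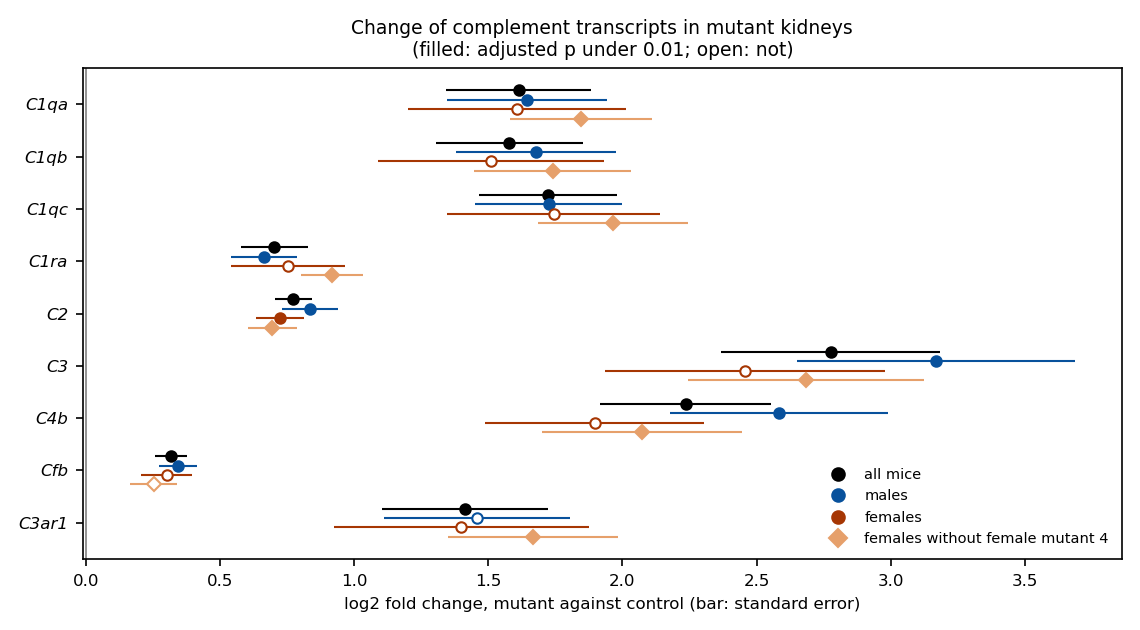
Log2 fold change of each complement transcript, mutant against control, with its standard error, in all mice, in males, in females and in females without female mutant 4. Filled symbols passed an adjusted p of 0.01, as all 9 did over all mice and C2 alone did in females, and open symbols did not.

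Taking all mice, 9 of the 9 members rose (edgeR's quasi-likelihood test with sex and litter in the model, Benjamini-Hochberg adjusted p under 0.01). Among all genes tested, 2252 of 14191 were called (15.9%), with 1421 of them higher in mutants (10.0%), and the median log2 fold change was 1.58 for the members and -0.01 for all genes tested. Within each of the 6 combinations of sex and litter, every member had a higher mean log2 CPM in mutants than in controls. These differences ranged from 0.26 to 0.38 for Cfb, from 0.62 to 0.95 for C2 and from 1.26 to 3.39 for C3. Some combinations had as few as 1 mouse a side. The mice are those of the fit over all mice, so this is no separate support. The share of all genes higher in all 6 combinations was not counted. The C2 values separated all mutants from all controls, which 0.979% of the genes tested did in that direction.

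In males 8 of the 9 members rose, against 8.46% of 14010 genes called and 5.25% called as higher. C3ar1, with a log2 fold change of 1.46 (SE 0.35), had an adjusted p of 0.0133. All 9 members had male mutants above male controls without overlap, as 8.60% of the genes tested did. The largest male changes were those of C3 (log2 fold change 3.17, SE 0.52, adjusted p = 0.0024) and C4b (2.58, SE 0.41, adjusted p = 0.0020). The count of members called depended on single mice. Without male control 4, the only male control of its litter, 1 member was called and 187 genes in all. Without male control 1, 2 or 3, 4, 4 and 3 members were called, and without male mutant 3 it was 5, while the log2 fold changes of C3 stayed between 2.15 and 3.64 in every such fit.

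In females only C2 rose (log2 fold change 0.72, SE 0.09, adjusted p = 0.0043), where 0.637% of 14439 genes were called and 0.457% called as higher. The other 8 had adjusted p values from 0.0250 for C3 to 0.117 for C3ar1, with log2 fold changes of 2.46 (SE 0.52) and 1.40 (SE 0.47). The sizes in females were near those in males for most members, and C1qa had 1.61 (SE 0.41) in females and 1.64 (SE 0.30) in males. C3 had 2.46 (SE 0.52) in females against 3.17 (SE 0.52) in males, and C4b 1.90 (SE 0.41) against 2.58 (SE 0.41). Errors were larger in females except for C2, C3 and C4b, whose errors were similar in the sexes. Without female mutant 4, 8 of the 9 members were called, all but Cfb, against 5.93% of 14595 genes, and C1qa was then at 1.85 (SE 0.27, adjusted p = 0.0025). Female mutants and controls did not overlap for C2, C4b and Cfb, as for 3.68% of the genes tested, and without female mutant 4 for all members but C3ar1, as for 7.00% of them. The C2 call itself was lost without any 1 of the 5 female controls or of female mutants 1 and 5, where 3 to 30 genes were called in all.

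The change from control to mutant was then compared between the sexes. The sex-by-genotype term called 0 of the 9 members and 0% of 14820 genes by edgeR's quasi-likelihood test, with 618 genes at an unadjusted p under 0.05, and DESeq2 called 18 genes but 0 members. The largest terms were those of C3, 0.76 (SE 0.78), and C4b, 0.71 (SE 0.62), toward a larger rise in males, and both had an adjusted p of 1. Their errors leave room for differences of over 1 on the log2 scale in C3 and C4b, whereas the terms of C2 (0.14, SE 0.14) and Cfb (0.07, SE 0.12) were small with small errors.

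Sex differences were measured in controls first. Of the 9 members, 5 were called between male and female controls, where 17.8% of 14123 genes were. C1qa (log2 fold change -0.58, SE 0.12, adjusted p = 0.0035), C1qb (-0.59, SE 0.11, adjusted p = 0.0015), C1qc (-0.61, SE 0.14, adjusted p = 0.0048) and C1ra (-0.45, SE 0.10, adjusted p = 0.0054) were lower in male controls, as 9.02% of genes were. Cfb was higher in male controls, at 586 ± 24.4 against 346 ± 20.0 CPM (log2 fold change 0.79, SE 0.07, adjusted p = 3.7e-06). The sexes did not overlap for any of these 5, as for 23.8% of the genes tested. The C1q and C1ra calls rested on the design: without female control 1, or with all 20 mice in 1 fit, Cfb alone was called. Macrophage markers summed to 124 to 151 CPM in male controls and 150 to 188 in female controls, and 1 of the 10 was called, lower in males, and their part in the C1q difference was not tested.

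Between male and female mutants only Cfb was called, higher in males at 742 ± 70.3 against 420 ± 39.2 CPM (log2 fold change 0.82, SE 0.11, adjusted p = 0.0012), where 5.42% of 14416 genes were called. Its values did not overlap, as for 8.08% of the genes tested, and the call was lost without female mutant 1, female mutant 5 or male mutant 5. Without female mutant 4, C1ra was called too (-0.71, SE 0.12, adjusted p = 0.0032). The difference of Cfb between the sexes had nearly the same size in controls and in mutants, 1.73-fold and 1.77-fold. C4b, at 1.11 (SE 0.47, adjusted p = 0.138), did not pass. The ratio of C4b to C3 counts was 0.227 to 0.431 in male mutants and 0.0826 to 0.151 in female mutants, without overlap. It was 0.261 to 0.633 in male controls and 0.0878 to 0.204 in female controls, also without overlap. The ratio was not tested, and how many other ratios separate the sexes was not counted. Neither C4b nor C3 was called between the sexes in either genotype. C4a, whose reads C4b may share, was called higher in male controls by edgeR's quasi-likelihood test (log2 fold change 1.61, SE 0.30, adjusted p = 0.0018). It was not called between mutant sexes.

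**Figure D3:**
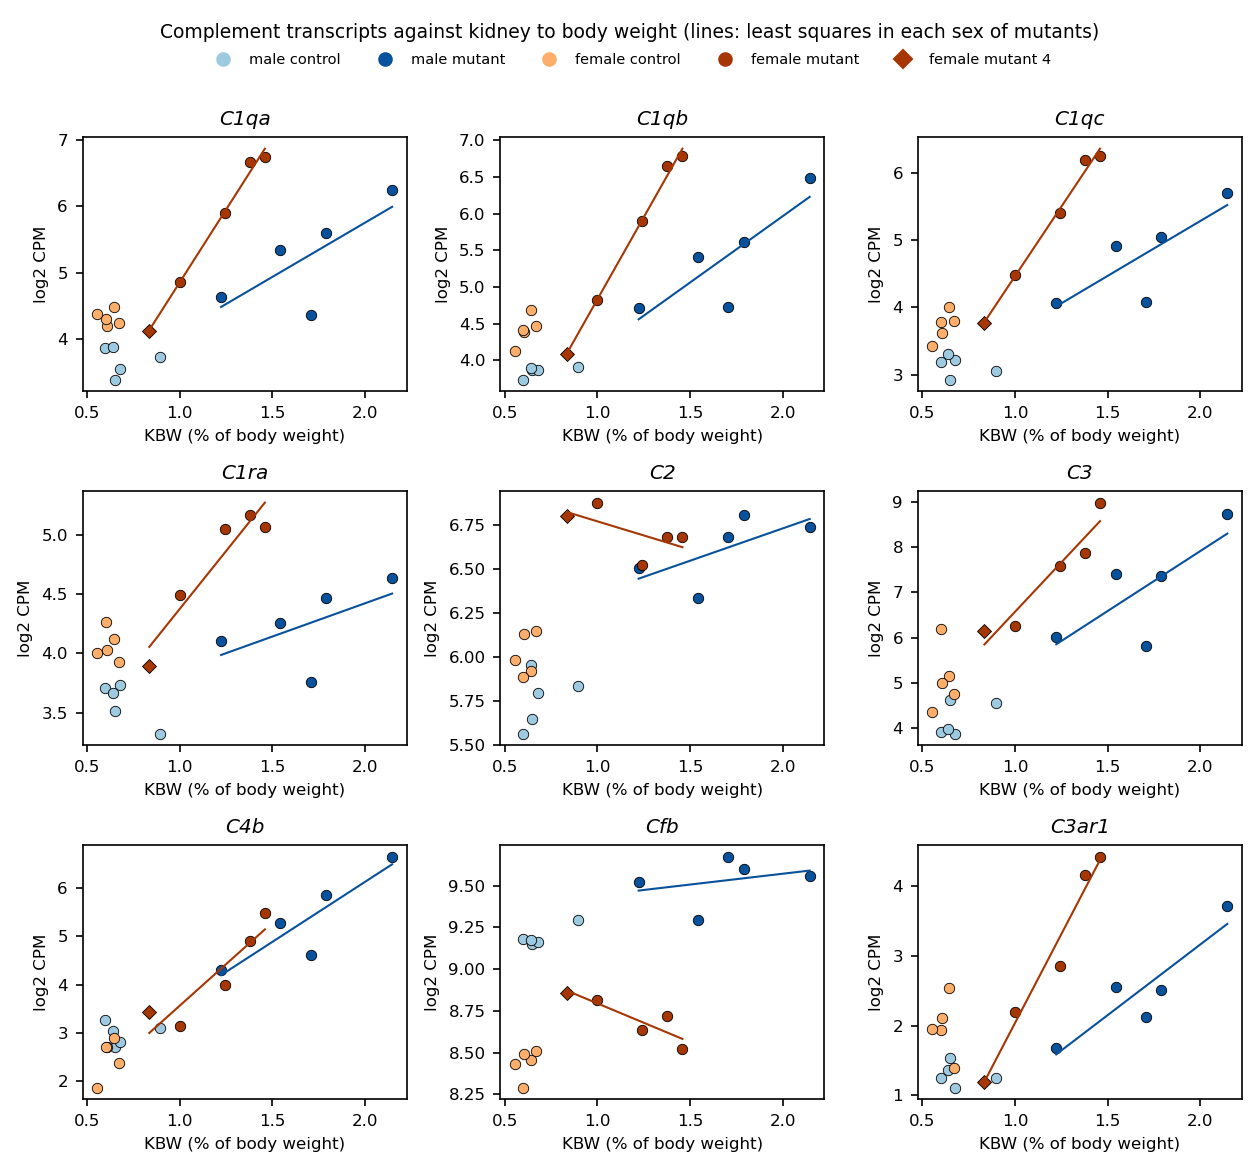
Log2 CPM of each complement transcript against KBW in percent, with 1 point per mouse and a least-squares line for the mutants of each sex. For the C1q chains, C1ra, C3 and C3ar1 the female line lay above the male line at the same KBW. For C4b the lines fell nearly together, and for Cfb the sexes stayed apart with little slope.

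The last question was which members followed kidney size among mutants. The slope of log2 expression on KBW, with sex in the model, was 2.86 per percentage point (SE 0.43) for C4b, 3.29 (SE 0.59) for C3 and 3.20 (SE 0.56) for C3ar1. The slopes of C1qa, C1qb and C1qc were 2.57 (SE 0.52), 2.702 (SE 0.47) and 2.51 (SE 0.47). At an adjusted p under 0.01 no member and 0% of 14865 genes passed edgeR's quasi-likelihood test, the smallest adjusted p of any gene being 0.0271, with 3274 genes at an unadjusted p under 0.05, and DESeq2 called 579 genes and 6 members. At an adjusted p under 0.05, these 6 members passed (from 0.0271 for C4b to 0.0358 for C1qa), where 2.47% of genes did. By p, C4b was at rank 7 of the whole table.

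C2 and Cfb, and to a lesser degree C1ra, stood outside this pattern. The slope of C2 was 0.08 (SE 0.20, adjusted p = 0.845) and that of Cfb -0.12 (SE 0.19, adjusted p = 0.767), so that a doubling per percentage point lies well outside their errors. C1ra had a slope of 1.02 (SE 0.32, adjusted p = 0.0967). The errors of the 6 steep slopes rest on 10 mice. Leaving out single mutants kept the slope of C4b between 2.62 and 3.14, but without male mutant 1 its adjusted p was 0.205, and without female mutant 4 it was 0.119 and that of C1qa 0.128.

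Without a sex term the relation with KBW was weaker for most members. Across the 10 mutants, C4b had Pearson's r = 0.918 (permutation p = 2.5e-04, adjusted p = 0.0925 over 14191 genes) and Spearman's rho = 0.891 (permutation p = 0.0011, adjusted p = 0.202), the 24th largest r in size. For C1qa, r was 0.429 (permutation p = 0.218, adjusted p = 0.570) and rho 0.406 (permutation p = 0.248, adjusted p = 0.635). For C3, r was 0.514 (permutation p = 0.129, adjusted p = 0.468) and rho 0.333 (permutation p = 0.350, adjusted p = 0.699). In all, 4 members had r over 0.5 (C4b, Cfb, C1qb and C3), and 12.7% of all genes did, while no gene passed after adjustment and 2149 had an unadjusted p under 0.05.

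Leaving out male mutant 1 and female mutant 4, the mice farthest from the median KBW, left r = 0.837 for C4b and brought C1qa to 0.0368 and C3 to 0.150, so the pooled relation of the latter rested on those mice. Within each sex, given only as a description over 5 mice, r was 0.995 to 0.997 for the C1q chains in females and 0.729 to 0.833 in males. For C4b it was 0.913 in females and 0.884 in males, for C3 0.958 and 0.754, and for C3ar1 0.984 and 0.903. The female values include female mutant 4, the mutant with the lowest KBW. Without this mouse the pooled r was 0.221 for C1qa and 0.904 for C4b. Cfb had -0.886 in female and 0.308 in male mutants, against a pooled r of 0.607 (permutation p = 0.0647, adjusted p = 0.364) and rho of 0.527 (permutation p = 0.123, adjusted p = 0.514). Male mutants had both more Cfb and a higher mean KBW than female mutants. After each sex mean was taken away, r over the 10 mutants was 0.887 for C4b, 0.826 for C1qa, 0.836 for C3, 0.204 for C2 and -0.198 for Cfb, with permutation p values that were 0.102 or more after adjustment. In the 10 controls, whose KBW spanned 0.555 to 0.896%, the pooled r ranged from -0.685 for C1ra to 0.525 for Cfb, and none passed after adjustment.

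Markers of other cells moved with these results. All 10 monocyte and macrophage markers (such as Adgre1, Csf1r and Cd68) rose over all mice, with a median log2 fold change of 1.51, and their summed level was 124 to 151 CPM in male controls against 213 to 582 in male mutants. In females it was 150 to 188 CPM in controls and 177 to 794 in mutants, and none of the 10 was at 0 in any group. The lowest value of the female mutants, 177, was that of female mutant 4. Relative to this sum, C1qa was at 8.31 to 10.8% in male controls and 8.97 to 13.2% in male mutants, and at 11.6 to 13.8% and 9.76 to 15.9% in females. In males, C1qb was at 9.40 to 11.67% in controls and 11.64 to 15.4% in mutants, with slight overlap. C1qc was at 5.40 to 7.19% and 7.43 to 8.95% there, without overlap, and in females both chains overlapped. C3 was at 10.6 to 19.9% and 24.9 to 73.0% in male controls and mutants, without overlap, and at 13.7 to 44.0% and 29.9 to 63.5% in females, with overlap. C4b likewise went from 5.19 to 6.73% in male controls to 9.13 to 17.3% in male mutants. In females it went from 2.34 to 4.10% to only 3.43 to 6.05%, and those groups overlapped. How many of all genes separate the male groups after this scaling was not counted, so these values are only descriptions.

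Of the other marker lists, 5 of 5 injured-tubule markers rose (median log2 fold change 4.60), as did 5 of 9 fibroblast markers and 2 of 6 tested hepatocyte markers, where 10.0% of all genes were called as higher. The summed hepatocyte level was 162 to 220.2 CPM in male controls against 195 to 329 in male mutants, and 98.1 to 152 against 102 to 188 in females. None of 2 tested neutrophil or 5 tested T and B cell markers was called, and all 4 podocyte markers fell. None of 5 endothelial, 6 proximal tubule, 2 tested adipocyte or 1 tested adrenal marker was called. Of the erythroid list only Alas2, the enzyme of heme synthesis in red cell precursors, was tested, and it fell by 2.16 (SE 0.22, adjusted p = 3.8e-06), while the 4 globin genes of the list were at 0 in every library. The part of these cells in the changes of the 9 members was not tested.

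The genes whose log2 CPM was most like each member over the 20 mice were named by the 3 highest values of Pearson's r. For C1qa they were C1qc (0.990), Ctss (0.988) and C1qb (0.986), and for C3 they were Ncf1 (0.974), Tgfbi (0.972) and Mpeg1 (0.970). C1ra was most like Mmp14 (0.961), Pdlim1 (0.961) and Mgp (0.960). C2 was most like Ptgds (0.939), Glis2 (0.909) and Stra6 (0.907), and C4b most like Mcm7 (0.949), Bspry (0.944) and Tpm3 (0.934). Cfb was most like Hsd17b11 (0.971), Frrs1 (0.969) and Cyp4a12a (0.959). Among the 9 members, Cfb had r between -0.283 and 0.188 with the 7 members other than C4b (0.530) over the 20 mice, and C2 had r between -0.124 and -0.008 with the other 8 within the 10 mutants. These values are descriptions over mice that share genotype and sex. The lists depend on the measure and the mice: of the 27 gene pairs, 3 for each member, 17 stayed without female mutant 4 and 8 with Spearman's rho. For C4b none of its 3 stayed with Spearman's rho, and for C1qa only C1qc stayed without female mutant 4.

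**Figure D4:**
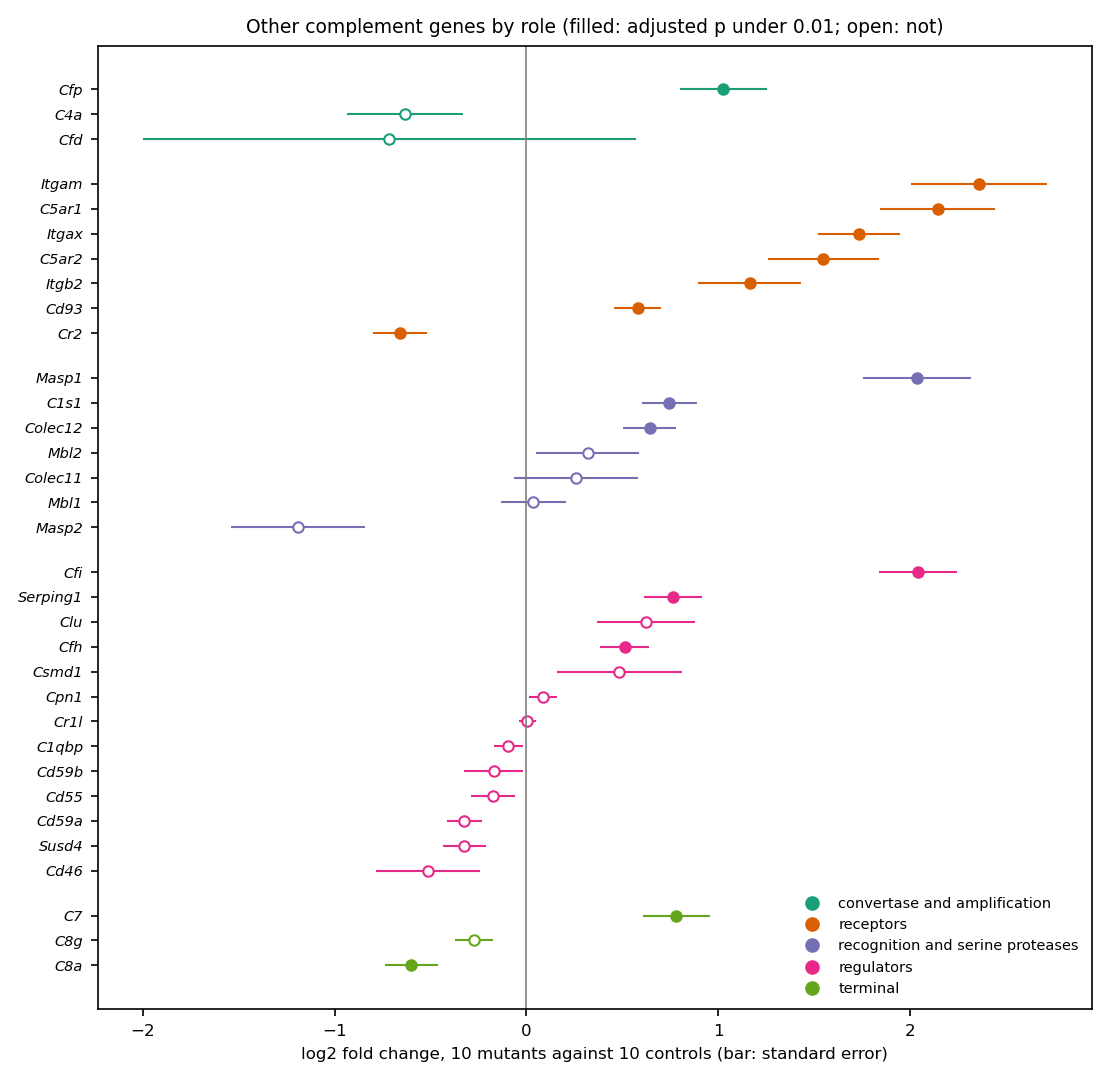
Log2 fold change, with its standard error, of the 33 other complement genes tested, 10 mutants against 10 controls, grouped by role. Filled symbols passed an adjusted p of 0.01, 14 higher and 2 lower in mutants, and 6 of the 7 receptors tested were among those higher.

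The remaining complement genes were taken from a list of the cascade. Of 51 listed, 33 were tested, and 14 rose, 2 fell and 17 were not called over all mice, where 15.9% of all genes were called and 10.0% called as higher. The median log2 fold change of the 33 was 0.32, against -0.01 for all genes. Of the 7 receptors tested, 6 rose and 1 fell. C5ar1, a receptor for C5a, had a log2 fold change of 2.14 (SE 0.30, adjusted p = 6.1e-05), and the second C5a receptor C5ar2 had 1.55 (SE 0.29, adjusted p = 7.0e-04). Itgam and Itgax, the alpha chains of complement receptors 3 and 4, had 2.36 (SE 0.35) and 1.74 (SE 0.21), and Cd93, made by endothelial and myeloid cells, had 0.58 (SE 0.12). Cr2, the receptor for C3d on B cells, was low and fell by 0.66 (SE 0.14, adjusted p = 0.0020).

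Of 13 regulators tested, 3 rose. Cfi, the protease that inactivates C3b and C4b, rose with a log2 fold change of 2.04 (SE 0.20, adjusted p = 3.7e-06), from 8.54 to 36.3 CPM in males and from 14.7 to 59.3 CPM in females as group means. It was the single gene of the 34 others tested in females that was called there (2.02, SE 0.19, adjusted p = 0.0021), where 0.637% of all genes were. Without female mutant 4, 13 of 34 were called in females, where 5.93% of all genes were. Serping1, the C1 inhibitor that blocks C1r and C1s, rose by 0.76 (SE 0.15, adjusted p = 0.0011). On cell surfaces, Cr1l had 0.01 (SE 0.05), Cd55 -0.18 (SE 0.12) and Cd59a -0.32 (SE 0.09, adjusted p = 0.0146), and these were not called. Clu, abundant at a mean of 378 CPM, had 0.62 (SE 0.26, adjusted p = 0.0807), and neither Cpn1 (0.09, SE 0.07) nor C1qbp (-0.09, SE 0.07) was called.

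In the lectin and alternative pathways, Masp1 rose by 2.04 (SE 0.28, adjusted p = 5.4e-05) from a low level, the scavenger receptor Colec12 by 0.64 (SE 0.14) and properdin, Cfp, by 1.03 (SE 0.23, adjusted p = 0.0026). Factor D, Cfd, varied so widely between mice that its value of -0.72 had an SE of 1.28. The terminal components split, with C7 rising by 0.78 (SE 0.18, adjusted p = 0.0028), C8a falling by 0.60 (SE 0.14, adjusted p = 0.0032) and C8g at -0.27 (SE 0.10, adjusted p = 0.0523). Hc, which encodes mouse C5, had at most 12 counts in any library, C6 at most 25 and C9 at most 27, and these were not tested over all mice. In males, C9 passed the filter through the mutants, each with 19 or more counts, at 1.40 ± 0.107 against 0.442 ± 0.193 CPM (SD, n = 5). Its call there (log2 fold change 1.70, SE 0.33, adjusted p = 0.0052) rests on the group that let it through and is no separate support. Female mutants had 0.211 ± 0.224 CPM and female controls 0.289 ± 0.200 CPM, with no test within females. Neither the difference between male and female mutants (log2 fold change 2.77, SE 0.60, adjusted p = 0.0134) nor the sex-by-genotype term of C9 (2.13, SE 0.75) was called.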

How the data were processed

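Per the labels and the study's methods, the authors trimmed reads with fastp 0.23.2, aligned them to mm10 with STAR 2.7.10b and deposited 1 table of raw counts per gene for the 20 kidneys. The counting tool, gene annotation, strand setting and handling of shared reads are not given in the sources used here. The 9 members and all gene lists were chosen with earlier results of these data known. Here, counts were tested with edgeR 4.0.16 in R 4.3.3 (filterByExpr, TMM scaling, quasi-likelihood test, Benjamini-Hochberg adjustment over all genes tested, called at an adjusted p under 0.01). Sex and litter were covariates, or sex alone for KBW slopes. CPM used TMM library sizes, and log2 CPM a prior count of 2. Correlations used 100000 permutations. DESeq2 1.42.0, other filters, scalings and designs, and leaving out each mouse were alternatives. The models were tested on simulated data first. Positions come from GENCODE on GRCm38, and motifs were searched in the bases before the RefSeq start. Named genes were the members, the 3 genes most like each (for C3ar1 not reported here), and, of other complement genes, up to 14 called genes averaging 1 CPM or more and up to 8 uncalled genes averaging 10 CPM or more. Other genes in the text (C4a, C1rb, Hc, C6, C9) were named for shared reads or low counts. Mice were numbered within groups by their order in the series. With 1 library per mouse, the spread between them mixes biological and technical differences, which cannot be told apart.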

Additional observations from a re-analysis of the deposited data

Results flagged for a closer look

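In 40 groups of 5 mice, 36 of them of the members, 3 held a mouse whose gap to its nearest neighbour took more of the group's range than Dixon's critical value, and chance flags about 1 in 20 groups. Male control 3 had the lowest C1qb of its group, at 13.2 CPM against 14.4 in the next, a gap of 0.746 of the range. Male control 5 had the highest Cfb of its group, at 628.5 CPM against 579.99, a gap of 0.812. The same mouse had the highest KBW of the male controls, at 0.896% against 0.678%, a gap of 0.736.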

How the results depend on the processing

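No paired analysis was possible because mice were numbered in accession order and no label pairs mice across groups; litter was a covariate instead. At an adjusted p under 0.05 the whole-table counts were 3778 over all mice, 2829 in males, 791 in females (5 members), 4211 between control sexes, 2099 between mutant sexes, 1 for the sex-by-genotype term and 367 for the KBW slope (6 members). DESeq2 called 2001 genes in males, 928 in females (5 members), 1959 between mutant sexes, 18 for the sex-by-genotype term and 579 for the slope (6 members). With no filter, 230 genes were called in females and 2 for the sex-by-genotype term, and a minimum of 10 counts gave 1 for the latter. Without litter, females had 172. With all 20 mice in 1 fit, females had 856 genes and 6 members, control sexes 1 member and mutant sexes 2353 genes. With sex and litter terms, the slope called 10 genes and 1 member. Leaving out 1 mouse gave 8 to 9 members and 1656 to 2994 genes over all mice, 1 to 9 and 187 to 1863 in males (lowest without male control 4), 0 to 8 and 3 to 866 in females (highest without female mutant 4), 1 to 5 and 1223 to 2659 between control sexes, 0 to 2 and 246 to 1330 between mutant sexes, 0 and 0 to 3 for the sex-by-genotype term, and 0 to 2 and 0 to 47 for the slope (highest without male mutant 5).

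The uncalled sex-by-genotype term of C1qc turned to -0.0147 with DESeq2, -0.0200 with its size factors, -0.0055 with the count minimum and -0.0142 without litter. Leaving out 1 mouse moved the term from -0.52 to 0.47 for C1qa, -0.42 to 0.63 for C1qb, -0.54 to 0.41 for C1qc, -0.25 to 0.0448 for C1ra, -0.32 to 1.33 for C3, -0.62 to 0.73 for C3ar1 and -0.13 to 1.23 for C4b, lowest without male mutant 1 and highest without female mutant 3. The difference of C3 between mutant sexes then ran from -0.84 to 0.0811. Without a sex term the KBW slope was -0.0302 for C2 and 0.70 for Cfb, and leaving out 1 mouse moved the C2 slope from -0.0044 to 0.18. The correlation with KBW turned to -0.293 for C1ra without the 2 farthest mice, and to 0.204 for C2 and -0.198 for Cfb after sex means were taken away, and over single mice it ran from -0.164 to 0.278 for C1ra and -0.237 to 0.130 for C2. The cause was not tested. Of the other member values, without leaving out mice, 390 kept direction and side of the threshold, 19 passed it newly and 5 no longer did. Counts of 25 or more per library limit C3ar1, and 5 mice a group limit all single-sex calls.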
